A study of Mus musculus with 44 samples.

Results

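The genes described here are 10 genes of the extracellular matrix, taken by name from the kidney RNA data: Col1a1, Col1a2, Col3a1, Col4a1, Col4a2, Col4a3, Col4a4, Fn1, Fbn1 and Sparc. They were 10 of 24733 genes with any value above 0. All 10 averaged 1 TPM or more (the unit of kallisto, an abundance per unit of transcript length scaled to the same total in every library), the limit for testing. They were therefore all among the 12874 genes tested, and none was at 0 in any library.

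Polyadenylated RNA came from whole kidneys of mice of the 129SV strain, aged 8 to 12 weeks and fed at night only. One genotype was wild type (WT) and the other a knockout (KO) of Arntl, also named Bmal1, a transcription factor of the circadian clock. Each genotype was sampled at 6 zeitgeber times (ZT, hours within the daily cycle), namely 0, 4, 8, 12, 16 and 20, with replicates A and B, which gave 12 WT and 12 KO libraries. The labels give neither sex nor the way the knockout was made, and they do not say whether libraries came from separate animals, so every p-value measures the spread between these libraries. A 4C-seq bait, a genomic site whose ligated contacts are sequenced, lay near Fn1 and was measured in liver and kidney of C57BL/6 WT mice of the same age range at ZT20 with food at all times.

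Fibrillar collagens bear the tension of the interstitium between tubules and vessels: the Col1a1 and Col1a2 chains join in type I collagen, and Col3a1 alone makes type III collagen. Type IV collagen forms the network of basement membranes. Its Col4a1 and Col4a2 chains occur in basement membranes throughout the body, while Col4a3 and Col4a4, with Col4a5, build the mature glomerular basement membrane and are made there by podocytes. Loss of Col4a3 or Col4a4 causes Alport syndrome, a hereditary kidney disease. Fibronectin (Fn1) is an adhesive glycoprotein that integrins bind and assemble into fibrils, fibrillin-1 (Fbn1) forms microfibrils, and Sparc is a secreted protein that binds collagen.

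The type IV genes lie in head-to-head pairs, and their promoter sequences are shown where available. Both members of each pair were called higher in KO by the test below, as were 50.9% of all genes tested. The part of the promoters in this was not tested. Promoter windows of 300 bases (250 before and 50 after the start, RefSeq, GRCm38.p6) were matched for 7 of the 10 genes: Col1a2, Col3a1, Col4a1, Col4a2, Col4a4, Fbn1 and Sparc. Col1a1, Col4a3 and Fn1 were not matched. Each is written 5′ to 3′ on its gene's own strand. In the first pair the capitals mark the 78 bases that both windows hold, which read as reverse complements of each other.
Col4a1, chr8:11312777-11313076, minus strand: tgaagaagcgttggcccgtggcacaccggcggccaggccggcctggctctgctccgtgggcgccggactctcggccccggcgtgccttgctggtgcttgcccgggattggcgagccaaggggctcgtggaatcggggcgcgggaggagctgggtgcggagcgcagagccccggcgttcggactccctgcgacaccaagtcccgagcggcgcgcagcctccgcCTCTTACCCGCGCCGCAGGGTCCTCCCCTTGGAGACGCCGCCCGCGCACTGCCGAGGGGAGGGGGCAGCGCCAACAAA
Col4a2, chr8:11312555-11312854, plus strand: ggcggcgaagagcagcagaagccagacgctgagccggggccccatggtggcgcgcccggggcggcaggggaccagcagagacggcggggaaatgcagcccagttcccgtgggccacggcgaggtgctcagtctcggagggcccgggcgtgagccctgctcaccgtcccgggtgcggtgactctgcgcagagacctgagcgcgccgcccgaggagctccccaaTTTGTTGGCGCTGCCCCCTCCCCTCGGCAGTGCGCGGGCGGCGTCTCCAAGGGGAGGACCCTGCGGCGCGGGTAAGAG
From their annotated starts, Col4a1 (11312826, minus strand) and Col4a2 (11312805, plus strand) run in opposite directions, and the annotated genes overlap by 22 bases at these starts. In the other pair the capitals mark the 71 bases between the annotated starts of Col4a4 (82586849, minus strand) and Col4a3 (82586921, plus strand).
Col4a4, chr1:82586800-82587099, minus strand: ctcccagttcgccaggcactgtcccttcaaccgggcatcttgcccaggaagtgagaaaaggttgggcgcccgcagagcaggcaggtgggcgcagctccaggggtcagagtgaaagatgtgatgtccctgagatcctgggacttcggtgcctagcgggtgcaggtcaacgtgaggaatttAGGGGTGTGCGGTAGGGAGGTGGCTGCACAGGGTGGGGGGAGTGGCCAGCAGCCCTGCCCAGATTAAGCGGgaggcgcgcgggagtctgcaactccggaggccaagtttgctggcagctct

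Short motifs were counted on both strands of the 7 windows. For Col1a2, Fbn1 and Sparc the RefSeq starts (4505618, 125506438 and 55420080) lie inside the gene positions given below. Their windows do not reach the gene starts at 4504814, 125507993 and 55423183, where motifs were not counted. The E-box CACGTG, a sequence that ARNTL with its partner CLOCK is known to bind, was in 0 of the 7, and 7.15% of 32851 promoter windows in the table held it. The letters CCAAT were in the windows of Col1a2, Col4a1 and Col4a2 (37.4% of all windows), and the GC box GGGCGG was in those of Col1a2, Col4a1, Col4a2 and Fbn1 (35.7% of all). TATAAA was in the Col3a1 window only of the 7 (13.6% of all). The Col4a1 and Col4a2 windows were 74.0% and 73.7% G or C, against 37.7% for Col3a1.

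The gene positions on GRCm38 were 11:94936224-94953042 for Col1a1 (plus strand), 6:4504814-4541544 for Col1a2 (plus), 1:45311538-45349706 for Col3a1 (plus), 8:11198423-11312826 for Col4a1 (minus) and 8:11312805-11449287 for Col4a2 (plus). Col4a3 lay at 1:82586921-82722059 (plus), Col4a4 at 1:82448423-82586849 (minus), Fn1 at 1:71585520-71653200 (minus), Fbn1 at 2:125300594-125507993 (minus) and Sparc at 11:55394500-55423183 (minus). Values were summed over all annotated transcripts of a gene. In 8 of the 10 genes protein-coding transcripts held 86.7% or more of the mean WT value. In Fn1 they held 27.4% ± 3.76 (SD, n = 12) in WT and 26% ± 5.05 (SD, n = 12) in KO, and its most abundant transcript was annotated as a retained intron. In Col3a1 they held 75.8% ± 4.55 (SD, n = 12) in WT.

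Some libraries stood apart. The clock gene Cry1 lay between 11.5 and 17.8 TPM in 11 KO libraries and at 1.03 TPM in the library labelled KO ZT4 A, near the WT libraries of that time (1.2 and 0.845 TPM). Nr1d1 lay between 1.23 and 3.46 TPM in those 11 and at 23.8 TPM in that library. That library therefore went against its label, and directions drawn from KO include it unless stated. Arntl itself was at 4.19 to 6.28 TPM in KO at all times, while in WT it ran from 0.295 TPM at ZT12 to 12.9 TPM at ZT0. Its values separated the genotypes at ZT0, ZT8, ZT12, ZT16 and ZT20, as labelled, and overlapped at ZT4 (WT 6.16 and 4.71 TPM, KO 6.28 and 4.98 TPM), so it gave no check of the libraries of that time. In KO ZT12 replicate A the Y-linked gene Ddx3y was at 0.099 TPM, against 11.7 to 17.5 in the other 23 libraries. KO ZT0 replicate A was the highest of all 24 libraries for 8 of the 10 matrix genes (it was so for 7.17% of all genes tested) and the highest KO library for 9 (9.41% of genes). The genotype results below were fitted again without these 3 libraries, a choice made after seeing the data. The depth of sequencing is unknown, since TPM keeps none.

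By level in WT the genes ran from Sparc (60.3 TPM ± 13.9, SD, n = 12) through Col4a3 (37.4 ± 7.74), Col4a1 (29.8 ± 6.71), Col4a4 (25.5 ± 3.08), Col4a2 (23.8 ± 4.48), Col3a1 (18.6 ± 5.09), Col1a2 (11.8 ± 2.37), Fn1 (8.61 ± 2.06) and Col1a1 (5.22 ± 1.42) to Fbn1 (1.26 ± 0.306). Neighbours in this order from Col4a3 to Col4a2 differed by less than the larger of their SDs across libraries. Within WT libraries Col4a3 was above Col4a4, and Col4a1 above Col4a2, in all 12. The mean TPM of each of these 4 was above that of each fibrillar collagen gene.

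**Figure D1:**
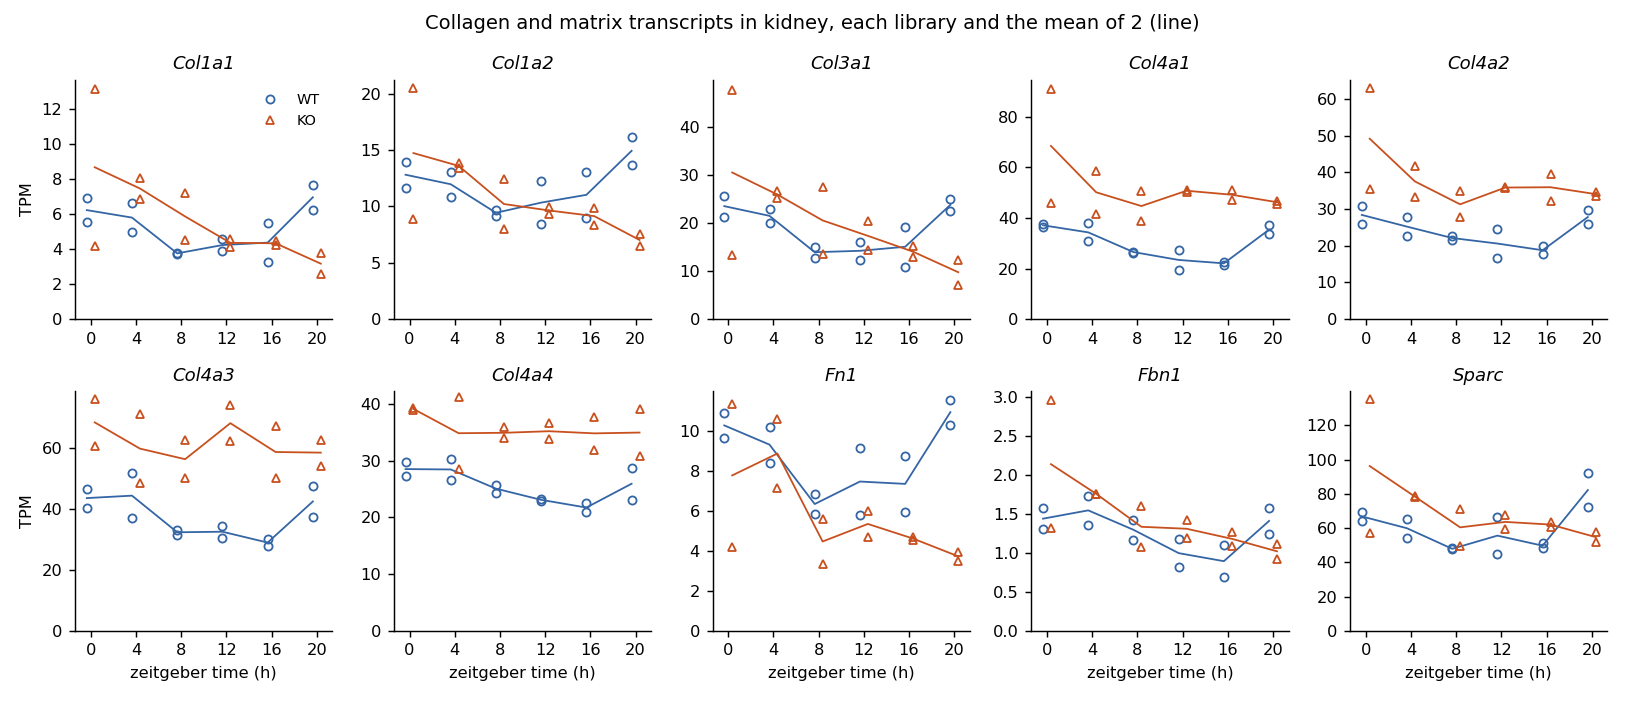
TPM of each gene (y axis, from 0, own scale per panel) against zeitgeber time (x axis, hours). Circles are WT and triangles KO libraries, and lines join the means of the 2 libraries per time. The Col4a1 triangles all lie above the circles, and KO ZT0 replicate A is the single high triangle at time 0 in most panels.

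The first comparison asked whether the matrix genes differ in level between KO and WT kidney once time of day is accounted for. All 4 type IV collagen genes were higher in KO, by 1.4-fold to 1.73-fold, and fibronectin was lower. The fibrillar collagen genes Col1a1, Col1a2 and Col3a1, and Fbn1 and Sparc, did not pass the test. So 5 of 10 were called, 4 higher and 1 lower, where 60.9% of all genes tested were called, 50.9% higher in KO and 10% lower (limma on log2(TPM + 0.1), adjusted p under 0.05). The median log2 change of the 10 was 0.17 and that of all 12874 genes 0.15. That upward shift of all genes depended on scaling: under median-of-ratios scaling the median of all genes was 0.00, 21.5% were called higher and 22.6% lower, and the same 5 matrix genes passed in the same directions. In RNA of whole kidney, fewer cells of a type and less RNA per cell cannot be told apart.

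Col4a1 encodes the chain that, with Col4a2, makes the type IV network common to most basement membranes. In WT its lowest, median and highest values were 19.5, 29 and 37.8 TPM, and in KO 38.7, 48.8 and 91 TPM. The groups did not overlap: all 12 KO libraries lay above all 12 WT libraries, which held for 1.42% of all genes tested. The log2 change was 0.79 (SE 0.11, limma adjusted p 7.68e-06), and KO was higher at 6 of 6 times. Without KO ZT0 replicate A, at 91 TPM, it was 0.73.

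Col4a2 is the partner chain, transcribed from the other side of the same promoter region printed above. It ran from 16.6 through a median of 23.6 to 30.8 TPM in WT and from 27.7 through 35.1 to 62.9 TPM in KO. The groups overlapped by 1 KO library, since 11 of 12 KO libraries lay above the highest WT value. The log2 change was 0.64 (SE 0.09, adjusted p 1.52e-05), higher at 6 of 6 times.

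Col4a3, a chain of the glomerular basement membrane, ran from 27.9 through a median of 35.8 to 51.9 TPM in WT and from 48.6 through 62.6 to 76.3 TPM in KO. Of the KO libraries 9 of 12 lay above the highest WT value, and the lowest was the library labelled KO ZT4 A. The log2 change was 0.73 (SE 0.09, adjusted p 3.04e-06), higher at 6 of 6 times, and 0.78 without that library.

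Col4a4, the divergent neighbour of Col4a3, had the narrowest spread of the type IV genes. It ran from 21 through 25.1 to 30.3 TPM in WT and from 28.5 through 36.3 to 41.2 TPM in KO, with 11 of 12 KO libraries above the highest WT value. The library below it was again the one labelled KO ZT4 replicate A. The log2 change was 0.48 (SE 0.06, adjusted p 3.39e-06), higher at 6 of 6 times. Over all 37 settings tried, the type IV changes kept their direction and passed, with log2 changes from 0.33 (Col4a4 under median-of-ratios scaling) to 0.85 (Col4a1). Of all genes tested, 9.3% had a log2 change at least as large as that of Col4a4.

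Fibronectin went the other way. Fn1 ran from 5.78 through a median of 8.95 to 11.6 TPM in WT and from 3.34 through 4.68 to 11.4 TPM in KO. The groups overlapped: 8 of 12 KO libraries lay below the lowest WT value, while KO ZT0 replicate A (11.4 TPM) and the library labelled KO ZT4 A (10.6 TPM) were as high as the upper WT libraries. The log2 change was -0.63 (SE 0.17, adjusted p 0.0029), lower at 6 of 6 times, and -0.80 (adjusted p 0.000282) without the 3 libraries that stood apart. Summed over protein-coding transcripts only, it was -0.69 (adjusted p 0.00784).

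The fibrillar collagens did not differ past the threshold over the whole day. Col1a1 ran from 3.27 through 5.22 to 7.66 TPM in WT and from 2.56 through 4.49 to 13.1 TPM in KO (log2 change 0.03, SE 0.19, adjusted p 0.906). Its sign was negative under median-of-ratios scaling (-0.12), among 12 of 37 settings. Col1a2 ran from 8.47 through 12 to 16.2 TPM in WT and from 6.5 through 9.62 to 20.5 TPM in KO (log2 change -0.17, SE 0.15, adjusted p 0.309). Its sign was negative in all 37 settings, and it passed in none. The change was -0.33 under median-of-ratios scaling (limma adjusted p 0.0716) and -0.30 without the 3 libraries that stood apart (0.0767). Col3a1 ran from 10.9 through 19.6 to 25.6 TPM in WT and from 7.1 through 14.7 to 47.7 TPM in KO (log2 change -0.04, SE 0.22, adjusted p 0.881), and its sign was positive in 5 of 37 settings. In each of these 3 genes the highest library was KO ZT0 replicate A and the lowest KO ZT20 replicate B, and the WT range lay inside the KO range.

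Fbn1, of the microfibril, ran from 0.69 through 1.27 to 1.73 TPM in WT and from 0.925 through 1.29 to 2.96 TPM in KO (log2 change 0.17, SE 0.13, adjusted p 0.286). Sparc ran from 44.7 through 59.4 to 92.2 TPM in WT and from 49.5 through 62 to 135 TPM in KO (log2 change 0.18, SE 0.13, adjusted p 0.245). Both log2 changes were near 0 under median-of-ratios scaling (0.02 and 0.03). For both genes the groups overlapped.

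**Figure D2:**
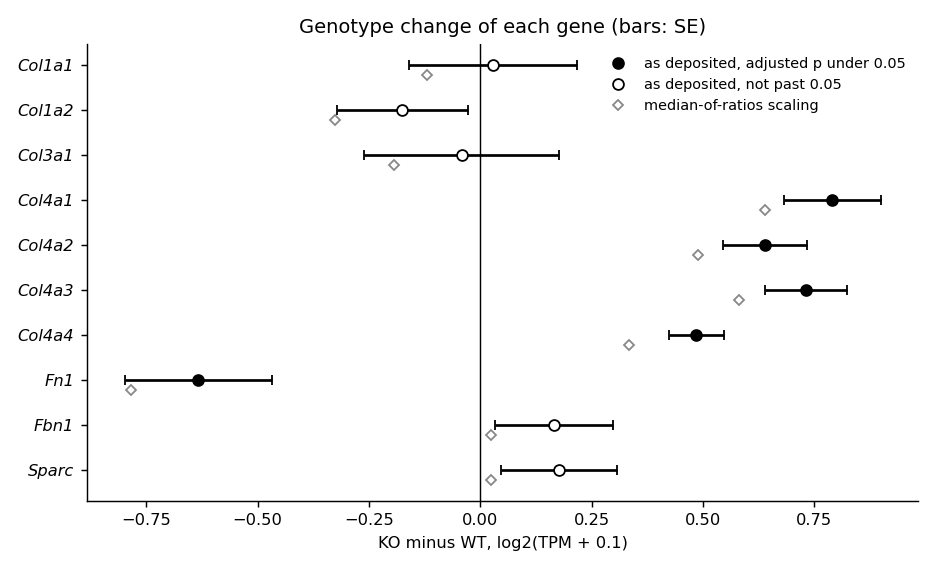
KO minus WT difference in log2(TPM + 0.1) for each gene (x axis), with bars of 1 SE over 24 libraries. Filled circles passed an adjusted p of 0.05 and open circles did not, and diamonds are the values under median-of-ratios scaling. The 4 type IV genes lie between 0.48 and 0.79 and Fn1 at -0.63.

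The interstitial genes had their lowest genotype difference at the same time of day. At ZT20 the KO minus WT difference in mean log2 was -1.13 for Col1a1, -1.08 for Col1a2, -1.33 for Col3a1, -1.53 for Fn1, -0.43 for Fbn1 and -0.58 for Sparc. Col3a1 was at 22.5 and 24.9 TPM in the WT libraries at ZT20 and at 12.4 and 7.1 TPM in the KO libraries. In these 6 genes both KO libraries lay below both WT libraries at ZT20, which held for 15.2% of all genes tested. With Col4a1 and Col4a2, 8 of the 10 had their lowest difference at ZT20, against 21.8% of all genes. At the other 5 times the differences ran from 0.03 to 0.59 for Col1a1, -0.25 to 0.19 for Col1a2 and -0.05 to 0.48 for Col3a1. They ran from -0.63 to -0.09 for Fn1, 0.02 to 0.44 for Fbn1 and 0.22 to 0.40 for Sparc. At ZT0 Col1a1 was at 13.1 and 4.2 TPM in KO, the higher being replicate A, and at 5.55 and 6.89 TPM in WT. Single times were not tested, and this time was picked after the values were seen.

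**Figure D3:**
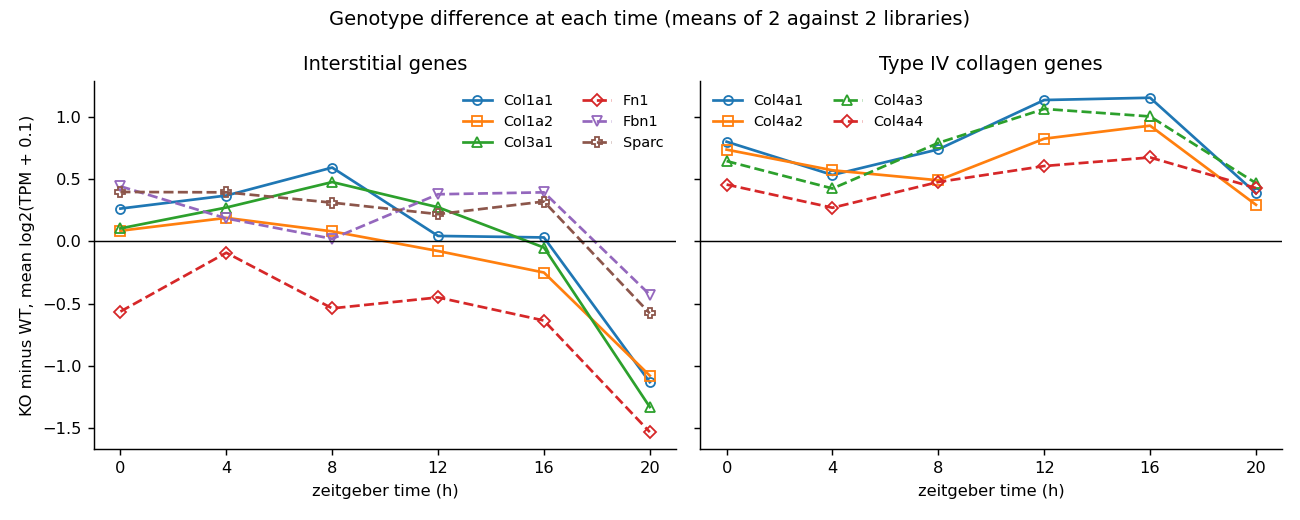
KO minus WT difference of the means of log2(TPM + 0.1), 2 libraries against 2 (y axis), at each zeitgeber time (x axis, hours), with the fibrillar collagens, Fn1, Fbn1 and Sparc on the left and type IV collagens on the right. All 6 lines on the left fall below 0 at ZT20, while the 4 lines on the right stay above 0 at every time.

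The second comparison asked which genes followed a 24-hour rhythm in each genotype, by a cosine fitted per genotype. In WT, 2 of 10 passed (13.7% of all genes did), both type IV collagen genes, and 5 had an unadjusted p under 0.05 (29.2% of all genes). In KO, 0 of 10 passed by limma (3.64% of genes did), with 3 at an unadjusted p under 0.05 (21.1%). The difference in rhythm between genotypes passed for 0 of 10 (0.629% of genes), with 1 at an unadjusted p under 0.05 (13.7%). Without the 3 libraries that stood apart it also passed for 0 of 10, with 6 at an unadjusted p under 0.05. The share of all genes is not given for that refit. A rhythm called in WT and not in KO is thus no difference shown here. The median fitted trough-to-peak rise of the 10 was 0.67 on the log2 scale in WT and 0.57 in KO, beside 0.25 and 0.21 over all genes.

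Col4a1 in WT was highest at ZT0, ZT4 and ZT20, between 30.7 and 37.8 TPM, and between 19.5 and 27.3 TPM in the libraries of ZT8, ZT12 and ZT16. Its fitted rise from trough to peak was 0.81 on the log2 scale (SE 0.20, adjusted p 0.0261), peaking at 0.586 h (SE 0.948). The 6 libraries of the first set and the 6 of the other did not overlap. Both sets of times were picked after the values were seen, so this gap is a description and no test. In KO the fitted difference was 0.26 (SE 0.20, adjusted p 0.697), and the test of the difference between genotypes gave an adjusted p of 0.538. Col4a1 did not pass in WT without replicate A of WT ZT0 (adjusted p 0.0597), ZT4 (0.0501) or ZT16 (0.0537), or without replicate B of WT ZT0 (0.0529) or ZT12 (0.0874).

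Col4a3 in WT had a fitted trough-to-peak rise of 0.62 on the log2 scale (SE 0.17, adjusted p 0.0465), peaking at 0.763 h (SE 1.06), against 0.04 (SE 0.17, adjusted p 0.992) in KO. The difference between genotypes had an adjusted p of 0.412. This call lay at the threshold and was lost without any 1 of 14 libraries. These were WT ZT0 A (adjusted p 0.112) and B (0.0574), ZT4 A (0.0904), ZT8 A (0.0734) and B (0.0726), ZT12 B (0.0849), ZT16 A (0.0876) and B (0.0891), and ZT20 A (0.0553) and B (0.0585), and KO ZT0 B (0.056), ZT8 B (0.0563), ZT16 B (0.0524) and ZT20 A (0.056). Its divergent neighbour Col4a4 fell just short (0.40 log2 units, SE 0.11, adjusted p 0.0542) and passed without the library labelled KO ZT4 A (0.015), WT ZT20 A (0.0466), KO ZT4 B (0.0469) or KO ZT20 B (0.0405). Col4a2 had 0.57 (SE 0.19, adjusted p 0.105) and passed without KO ZT0 replicate A (0.0281).

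Fitted peaks of the 10 genes in WT lay between 21.9 h (Col1a2) and 2.04 h (Fbn1), on either side of ZT0. In KO the 3 genes with an unadjusted p under 0.05 were the fibrillar collagens Col1a1, Col1a2 and Col3a1, with peaks at 4.2, 4.05 and 4.92 h and trough-to-peak rises of 1.05, 0.71 and 1.15 on the log2 scale (SE 0.32, 0.26 and 0.38). Their adjusted p-values were 0.124, 0.206 and 0.166. Without KO ZT0 replicate A, Col1a1 (adjusted p 0.0467) and Col3a1 (0.0472) passed in KO, and Col1a1 passed in WT (0.0438). Without all 3 libraries that stood apart, 0 of the 10 passed in KO (Col1a1 0.1, Col3a1 0.0825), while Col1a1 passed in WT (0.0324). In WT these 3 genes had fitted peaks at 22.8, 21.9 and 23.5 h. The test of a different rhythm gave Col1a1 an unadjusted p of 0.0427 (adjusted 0.351), Col1a2 an adjusted p of 0.385 and Col3a1 one of 0.402. Fn1 (0.75 log2 units in WT, SE 0.32, adjusted p 0.251), Fbn1 (0.72, SE 0.26, adjusted p 0.141) and Sparc (0.61, SE 0.25, adjusted p 0.205) did not pass in WT, nor in KO (adjusted p-values of 0.277, 0.244 and 0.458).

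Partner chains were next compared within each library, where the scaling of TPM has no part. The ratio of Col4a3 to Col4a4 ran from 1.29 through a median of 1.44 to 1.71 in WT and from 1.48 through 1.74 to 2.02 in KO. It was higher in KO at 6 of 6 times, by 0.25 on the log2 scale (exact permutation within times, two-sided, adjusted p 0.00257 over 4 ratios). The 2 groups overlapped, with 7 of 12 KO libraries above the highest WT ratio. The ratio of Col4a1 to Col4a2 ran from 1.11 through 1.22 to 1.41 in WT and from 1.24 through 1.4 to 1.46 in KO, a log2 difference of 0.15 (exact permutation adjusted p 0.00669, higher at 5 of 6 times). Within each divergent pair the rise in KO was thus larger for Col4a3 than for Col4a4, and larger for Col4a1 than for Col4a2.

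In type I collagen the ratio of Col1a1 to Col1a2 ran from 0.362 through 0.458 to 0.505 in WT and from 0.394 through 0.501 to 0.639 in KO. The log2 difference was 0.20 (exact permutation adjusted p 0.0117, higher at 5 of 6 times), although neither gene changed on its own by the test above. Without the 3 libraries that stood apart it was 0.16 (adjusted p 0.0494). The ratio of Col3a1 to Col1a1 ran from 3.15 through 3.52 to 4.02 in WT and from 2.77 through 3.38 to 4.44 in KO, and did not differ past the threshold (-0.07, exact permutation adjusted p 0.301). The smallest p these permutations can give is 4.29e-05.

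**Figure D4:**
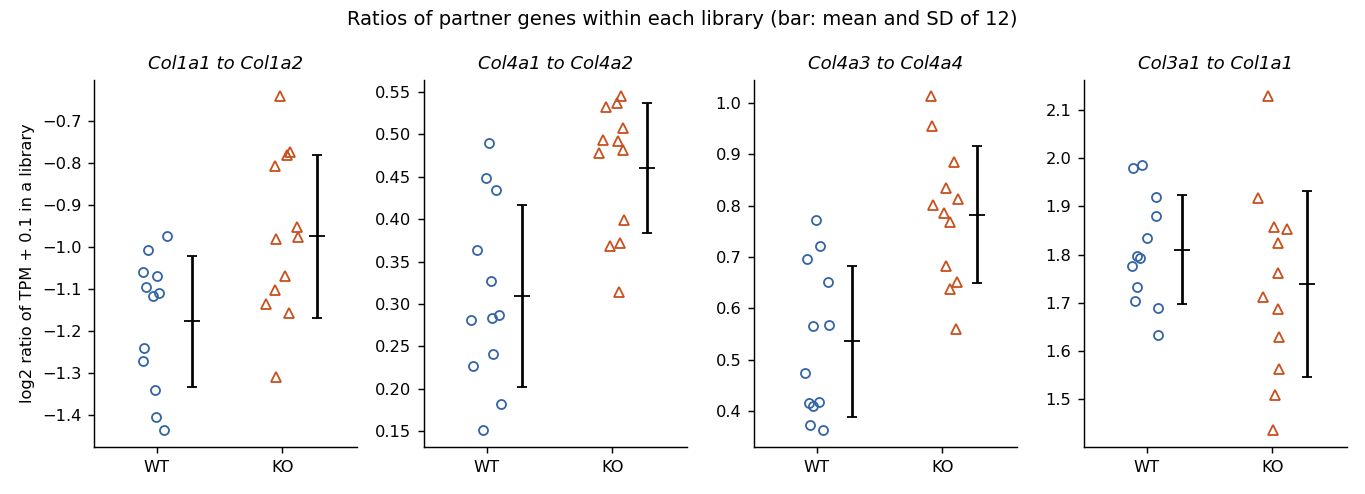
Log2 ratio of the TPM + 0.1 of 2 genes within each library (y axis), by genotype (x axis), with circles for WT, triangles for KO, and a bar at the mean with the SD of 12 libraries. The Col4a3 to Col4a4 ratio shows the largest shift, 0.25, and in the Col3a1 to Col1a1 ratio 1 KO library lies above and 4 lie below the WT range.

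Across libraries the partners varied together within each genotype. Over 12 libraries, Col1a1 and Col1a2 had a Pearson r of 0.94 in WT and 0.98 in KO (Spearman rho 0.92 and 0.90). Col4a1 and Col4a2 had 0.96 and 0.97 (rho 0.97 and 0.87), Col4a3 and Col4a4 0.92 and 0.81 (rho 0.90 and 0.79), and Col3a1 and Col1a1 0.96 and 0.97 (rho 0.96 and 0.90). All 8 relations had a permutation p, adjusted over the 8, of at most 0.0014 for r and 0.0033 for rho. These permutations moved libraries across times, so a course over the day that both partners share also enters r and p. Without the 2 libraries farthest from the median, r stayed between 0.75 (Col4a3 and Col4a4 in KO) and 0.96 (Col3a1 and Col1a1 in WT). These values were taken within each genotype as labelled. The KO set includes the library labelled KO ZT4 A, which went against its label, so a genotype change may still enter the KO values.

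As a description, the 15 pairs among Col1a1, Col1a2, Col3a1, Fn1, Fbn1 and Sparc had a median r of 0.89 in WT and 0.91 in KO. The 6 pairs among the type IV genes had 0.83 and 0.63, and the 24 pairs between both sets 0.72 and 0.58. All of these values share library and scaling. Over the 24 libraries the genes outside the 10 with the pattern most like Col1a1 were Loxl2 (r 0.86), Mmp2 (0.85) and Kdelr3 (0.83), with 0.94, 0.75 and 0.56 within WT and 0.83, 0.93 and 0.93 within KO. Those most like Col4a1 were Slc7a8 (0.95), Dag1 (0.94) and Nid2 (0.94), and those most like Col4a3 were Dag1 (0.95), Nid2 (0.94) and Prom1 (0.94). These r values over both genotypes include the shared KO shift. Within WT they were 0.93, 0.95 and 0.95 for Col4a1 and 0.84, 0.85 and 0.86 for Col4a3, and within KO 0.77, 0.77 and 0.66 for Col4a1 and 0.84, 0.78 and 0.70 for Col4a3.

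Other matrix genes were counted from lists, beside the 50.9% of all genes tested that were called higher in KO and the 10% called lower. Of 12 tested collagens outside the 10, 5 were higher and 4 lower in KO (limma, adjusted p under 0.05), among them Col18a1 (0.77 log2 units, SE 0.08), Col4a5, the partner of Col4a3 and Col4a4 (0.57, SE 0.08), and Col16a1 (-0.65, SE 0.12). Of 15 basement membrane genes, 9 were higher and 2 lower, among them Npnt (1.34, SE 0.14) and the laminin chain Lamb1 (0.48, SE 0.06). The summed level of these 15 was 182 to 225 TPM in WT and 229 to 350 TPM in KO, so the groups did not overlap. Much of that difference lay in Npnt, with a mean of 30.8 TPM in WT and 76.4 TPM in KO. The sum therefore does not speak for each gene of the list. None of the 5 small proteoglycans was higher and 3 were lower, which were Ogn (-0.71, SE 0.13), Bgn (-0.55, SE 0.11) and Prelp (-0.52, SE 0.12).

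Of 18 elastic fibre genes and glycoproteins, 6 were higher and 5 lower, led by Efemp1 (0.88, SE 0.11), Tnxb (-1.03, SE 0.13) and Ltbp3 (0.54, SE 0.07). Of 22 genes that process or cross-link collagen, 9 were higher and 4 lower, led by Bmp1 (0.82, SE 0.09), the cross-linking enzyme Lox (1.41, SE 0.18) and Colgalt1 (0.31, SE 0.04). Of 14 genes of matrix breakdown, 6 were higher and 4 lower, led by Timp3, an inhibitor of metalloproteinases (-0.57, SE 0.08), Ctsb (0.28, SE 0.04) and Mmp15 (0.90, SE 0.14). Mean levels in WT and KO were 0.703 and 2.06 TPM for Lox, 0.822 and 1.51 TPM for Mmp15, and 1.72 and 0.794 TPM for Tnxb. These genes lay below 1 TPM in 1 genotype and met the limit for testing only through the genotype where they were high. Of 15 matrix receptors, 12 were higher and 0 lower, led by Sdc4 (0.56, SE 0.06), Dag1 (0.53, SE 0.06) and Itga6 (0.90, SE 0.10). Of 17 TGF-beta pathway genes, 5 were higher and 2 lower, led by Ski (0.34, SE 0.06), Tgfbi (-0.91, SE 0.15) and Smad6 (0.43, SE 0.08). Under median-of-ratios scaling, where 21.5% of all genes were called higher and 22.6% lower, the counts higher and lower were 4 and 6 (collagens), 7 and 3 (basement membrane), 0 and 5 (proteoglycans), 4 and 5 (elastic fibre), 5 and 6 (processing), 5 and 6 (breakdown), 8 and 1 (receptors) and 2 and 7 (TGF-beta). Without the 3 libraries that stood apart, 5 of the collagens were higher and 6 lower, and 3 of the TGF-beta genes were higher and 2 lower. No list was tested against all genes.

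Marker genes of cell types were counted in the same way, beside the 50.9% of all genes tested called higher in KO and the 10% called lower. Of 8 podocyte markers 7 were higher in KO, also under median-of-ratios scaling, led by Ptpro (0.63, SE 0.07), Wt1 (0.52, SE 0.07) and Nphs1 (0.45, SE 0.07). Their summed level was 70.7 to 96.7 TPM in WT and 93.8 to 138 TPM in KO. Of 8 endothelial markers 4 were higher, led by Plvap (0.52, SE 0.08), Pecam1 (0.37, SE 0.08) and Cdh5 (0.22, SE 0.08), with sums of 164 to 248 TPM in WT and 170 to 315 TPM in KO. All 6 collecting duct markers were higher, led by Avpr2 (0.95, SE 0.11), Atp6v1g3 (0.49, SE 0.08) and Slc26a4 (0.33, SE 0.07), with sums of 187 to 287 TPM in WT and 228 to 510 TPM in KO. The endothelial share is near that of all genes, and without the 3 libraries that stood apart 2 of the 8 were higher. Under median-of-ratios scaling 2 endothelial markers were higher and 1 lower, and all 6 collecting duct markers stayed higher. The part of these cell types in the type IV changes was not tested.

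Fibroblasts and pericytes are known as makers of interstitial collagen. Of 7 fibroblast and pericyte markers 2 were higher, S100a4 (0.54, SE 0.14) and Cspg4 (0.20, SE 0.08), with sums of 55.9 to 72.4 TPM in WT and 57 to 79.4 TPM in KO. Of 4 smooth muscle markers 2 were higher, Myh11 (0.36, SE 0.07) and Acta2 (0.35, SE 0.09), with sums of 38.5 to 59.8 and 44.3 to 69.7 TPM. Neither share was above the 50.9% of all genes tested that were called higher in KO (10% were called lower). Under median-of-ratios scaling, with 21.5% of all genes higher and 22.6% lower, the counts of these markers became 1 higher and 1 lower of 7, and 2 and 2 of 4. Without the 3 libraries that stood apart they were 1 and 1 of 7, and 2 and 0 of 4. KO ZT0 replicate A, the highest library for 8 of the 10 matrix genes, also had the highest sum of the 24 libraries for fibroblast (79.4 TPM), smooth muscle (69.7 TPM), endothelial (315 TPM) and blood markers (2549 TPM). It had the lowest for proximal tubule markers (3082 TPM, against up to 4465 TPM), and the part of this in its matrix values was not tested.

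The other lists marked the tissue, and their counts stand beside the same 50.9% of all genes called higher in KO and 10% lower. Of 8 proximal tubule markers 2 were higher and 3 lower, led by Slc5a2 (0.45, SE 0.08), Slc22a6 (-0.92, SE 0.18) and Slc27a2 (-0.39, SE 0.08), and of 5 markers of the loop of Henle and distal tubule 4 were higher and 1 lower, led by Slc12a1 (0.72, SE 0.08), Slc12a3 (0.44, SE 0.07) and Calb1 (0.64, SE 0.13). Of 4 leukocyte markers 0 were higher and 2 lower, Csf1r (-0.33, SE 0.06) and Adgre1 (-0.54, SE 0.14). Of 5 blood markers 3 were higher and 1 lower, led by Hbb-bs (0.44, SE 0.15), Hba-a1 (0.34, SE 0.12) and Hba-a2 (0.34, SE 0.13). The liver gene Alb, at 2.51 TPM ± 0.582 (SD, n = 12) in WT and 0.601 ± 0.569 (SD, n = 12) in KO, was the 1 of 2 liver markers called, lower in KO (-2.10, SE 0.22). Alb met the limit for testing only through its WT level. Under median-of-ratios scaling the counts higher and lower were 1 and 4 (proximal tubule), 3 and 1 (loop and distal tubule), 0 and 3 (leukocyte), 0 and 1 (blood) and 0 and 1 (liver).

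Fn1 was the only one of the 10 genes within the span of the 4C-seq bait at Mreg. This bait lay at position 72212660 of chromosome 1 (GRCm38, from a match of all 6070 fragment offsets to GATC sites), and the Fn1 start was at an offset of -559 kb from it. The authors' deposited table gives 1 smoothed contact signal per tissue and fragment, on a scale that is not stated, so no spread between libraries was available. In the authors' deposited table the signal over the 103 fragments that touch Fn1 ran from 0.106 through a median of 0.149 to 0.243 in liver and from 0.055 through 0.0792 to 0.102 in kidney. All 103 fragments had more signal in liver, and the 2 tissues' ranges did not overlap. The signal is smoothed over neighbours, so these are not 103 separate observations. The share of all 6070 fragments with more signal in liver was not computed.

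By the p-values of the authors' deposited table, adjusted over the bait's fragments, 13 of the 103 passed 0.05, against 1.81% of all fragments of the bait. These 13, in the authors' deposited table, lay from 71644720 to 71652493, 0.869 to 7.99 kb into Fn1 from its start. The fragment with the smallest p, 5.77 kb into the gene, had a signal of 0.243 in liver and 0.0772 in kidney in the authors' deposited table (Z 4.2, adjusted p 0.00356). Over the 507 other fragments between 500 and 700 kb from the bait, the authors' deposited table had medians of 0.0607 in liver and 0.0583 in kidney, and 1 passed. Neighbouring fragments share smoothed signal and are not independent. Fibronectin is known to be made by hepatocytes and released into plasma, but liver RNA was not analysed here.

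**Figure D5:**
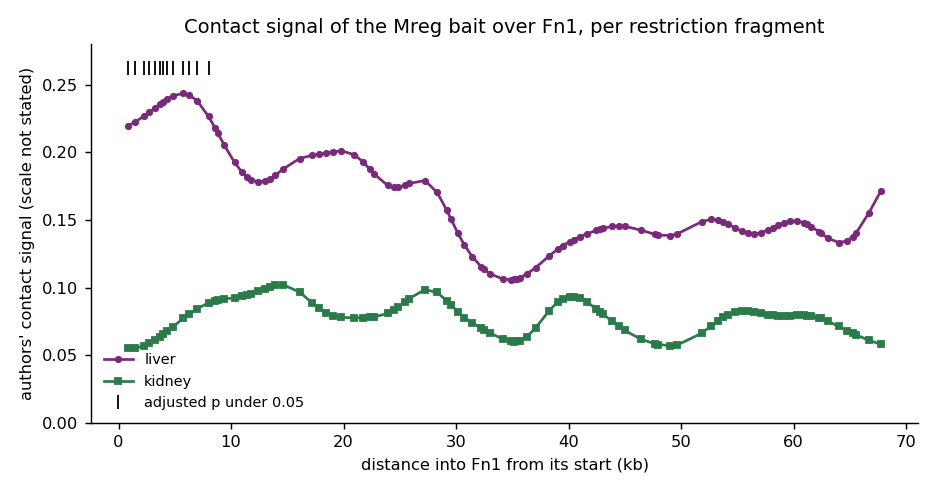
Contact signal of the Mreg bait (y axis, the authors' scale) at each restriction fragment touching Fn1, by distance into the gene from its start (x axis, kb), in liver (circles) and kidney (squares). Ticks at the top mark the 13 fragments with an adjusted p under 0.05, all within 8 kb of the start, where the liver curve is highest.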

How the data were processed

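Kidney RNA was measured in 24 libraries, grouped by the labels alone. The authors deposited TPM per transcript, made with kallisto 0.42.4 against GRCm38 (mm10) per the submitters' processing notes, and TPM keeps no depth, so no counting interval was computed. Transcripts were summed to genes through GENCODE M21, by identifier without version: 86119 of 88198 matched, and the 2079 unmatched ones, with 1.35% to 2.24% of TPM per library, were left out. Values were log2(TPM + 0.1) for the 12874 genes averaging 1 TPM or more, so fold changes of low genes are understated. limma 3.58.1 (eBayes with trend and robust options, R 4.3.3) tested genotype with time as a 6-level factor, and 24-hour cosine and sine terms per genotype, with Benjamini-Hochberg adjustment over all genes and a threshold of 0.05, two-sided or F tests. The fits were tested on simulated data.

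Ratios were tested by all 46656 assignments of genotype within times. Correlations were tested by 100000 permutations of the libraries of a genotype, across times. The 10 genes and the gene lists were chosen with earlier results of these data known, so they are not independent of them. Named from each list were up to 3 called genes with the smallest genotype p, besides all 10 genes and Arntl. Cry1, Nr1d1 and Ddx3y were named after their values were seen. One gene that the rule names is not reported here. Likeness named the 3 genes with the highest r over the 24 libraries.

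Replicate letters did not pair libraries: over 66 pairs of groups, A minus B deviations correlated at -0.32 to 0.34 (median 0.02, 21 over 0.1). For the Mreg bait the authors deposited a contact signal, which is a score of unstated scale, with a Z-score and p-value per fragment, both libraries of a tissue combined, per the file headers. Build mm9 is named for those data per the submitters' processing notes, and positions here come from a match to GRCm38. The other 4 bait tables and protein sequences were not used here.

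Alternatives covered pseudocounts of 1 and 0.01 TPM, no filter or a filter at 5 TPM, scaling by the median of ratios, totals without the 20 most abundant genes, the replicate block, plain eBayes, other rhythm models, no time term and leaving out each library. Leaving out KO ZT0 A with KO ZT4 A, or both with KO ZT12 A, and protein-coding transcripts only were chosen after seeing the data.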

Additional observations from a re-analysis of the deposited data

How the results depend on the processing

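The count of 5 genes differing by genotype, 4 higher and 1 lower in KO, stayed at 5, with the same genes, in every alternative, including the replicate block (5) and leaving out each of 24 libraries (5 to 5). The 4 ratios kept their side of the threshold in all alternatives that were run for them. They were not computed from protein-coding transcripts only. Without 1 library their log2 differences ranged from 0.17 to 0.24 (Col1a1 to Col1a2), 0.13 to 0.17 (Col4a1 to Col4a2), 0.22 to 0.27 (Col4a3 to Col4a4) and -0.10 to -0.04 (Col3a1 to Col1a1), and with the replicate block they were 0.20, 0.15, 0.25 and -0.07.

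The count of 2 genes rhythmic in WT was the least stable. It was 0 with time as a 6-level factor, 7 in a fit of the 12 WT libraries alone, and 1 with no filter, median-of-ratios scaling, totals without the 20 most abundant genes, plain eBayes or the replicate block (Col4a1 alone). It was 6 without KO ZT0 A and KO ZT4 A, and 6 without KO ZT12 A as well. Leaving out 1 library gave 0 to 4. The share of all genes called rhythmic in WT is given for the main fit only (13.7%), so the counts under the alternatives cannot be set against one. For these shifts the cause was not tested, beyond the change of genes or libraries that each alternative makes. The count rhythmic in KO was 0, and 0 to 2 without 1 library (2 without KO ZT0 A, and 0 without KO ZT0 A, KO ZT4 A and KO ZT12 A together). The count with a different rhythm was 0, and 0 to 0 without 1 library. No result reversed among values that passed.

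Single times were not tested. TPM gives no depth, so the precision of Fbn1, the least abundant of the 10, is unknown beyond the spread between libraries.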
